A study of Gallus gallus with 3 samples.

Results

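AK1, ADSL and AMPD1 are 3 of the 10663 named genes in these data, chosen because they tie ATP turnover in fast muscle to the release of ammonia. Their deposited transcripts were found through their RefSeq accessions, with the version dropped, and were summed per gene. All 3 genes were found: AK1 and ADSL through 1 curated transcript each and AMPD1 through 2 predicted transcripts. All 3 passed the filter on low values.

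The tissue was breast muscle of 42-day-old male Arbor Acres broilers, a fast-growing line of meat chicken (Gallus gallus), kept in air with 50 ± 3 ppm of ammonia. The 3 libraries, made from mRNA taken with oligo(dT) beads, belong to this 1 group, and library 1, 2 or 3 stands for the number in a title. Birds at another ammonia level were not analysed here, and nothing in these values can be read as a response to ammonia. Separate birds are not stated as the source of the libraries, so each SD and p-value covers the spread between these libraries alone, which may be technical.

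In a working muscle fibre, adenylate kinase turns a pair of ADP molecules into ATP and AMP, which recovers energy when ATP is used faster than it is made. AMP deaminase then turns AMP into IMP and frees ammonia. Adenylosuccinate synthetase joins IMP to aspartate, and adenylosuccinate lyase splits the product into AMP and fumarate; these steps with AMP deaminase form the purine nucleotide cycle. AK1 is the cytosolic adenylate kinase of muscle, AMPD1 the muscle form of AMP deaminase, and ADSL the lyase, which also acts in the making of purines from small precursors.

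The tables name no unit. Their values were read as FPKM, a level per length of transcript and per size of library, which is inferred from the values themselves. Their totals were 569361, 586193 and 573648 in libraries 1 to 3, and the depth in reads is unknown. Across the 6595 genes kept, those that reached 1 FPKM in 2 or more libraries, log2(FPKM + 1) had a Pearson correlation of 0.973 between libraries 2 and 3 and of 0.951 for library 1 with either, where genes are not independent replicates. Fast muscle markers matched the tissue label: MYL1, TNNT3, TNNC2 and TNNI2 each had at least 9696 FPKM in every library. The muscle list held 6 matched genes of 10, summing to 48884, 62264 and 62391 FPKM in libraries 1 to 3, and its lowest were MYOG, a regulator of muscle formation, with at most 18.6 FPKM and PVALB, a calcium buffer, with at most 2.37 FPKM.

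AK1, which makes ATP and AMP from ADP, was the highest of the 3 genes. It had 4135, 3224 and 3421 FPKM in libraries 1 to 3, a mean of 3593 ± 479 FPKM (SD, n = 3). Library 1 was the high one, and the highest library stood 1.28 times above the lowest. By mean level AK1 ranked number 15 among named genes, with ranks of 13, 16 and 15 in the separate libraries. This single gene held 0.624 ± 0.091% of the summed value of a library.

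ADSL, which releases fumarate and AMP in the cycle, came next. Its level was 668, 684 and 449 FPKM in libraries 1 to 3, a mean of 600.1 ± 131 FPKM (SD, n = 3). Libraries 1 and 2 lay close together and library 3 was low, 1.52 times under library 2. ADSL ranked number 103 among named genes by mean level, and 92, 96 and 138 in libraries 1 to 3. It held 0.104 ± 0.022% of the summed value.

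AMPD1, whose product frees ammonia from AMP, was the lowest of the 3. The sum of its transcripts was 69.7, 88.2 and 96.4 FPKM in libraries 1 to 3, a mean of 84.8 ± 13.7 FPKM (SD, n = 3). Library 1 was the low one here, and the highest library stood 1.38 times above it. AMPD1 ranked number 556 by mean level and held 0.015 ± 0.002% of the summed value.

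**Figure D1:**
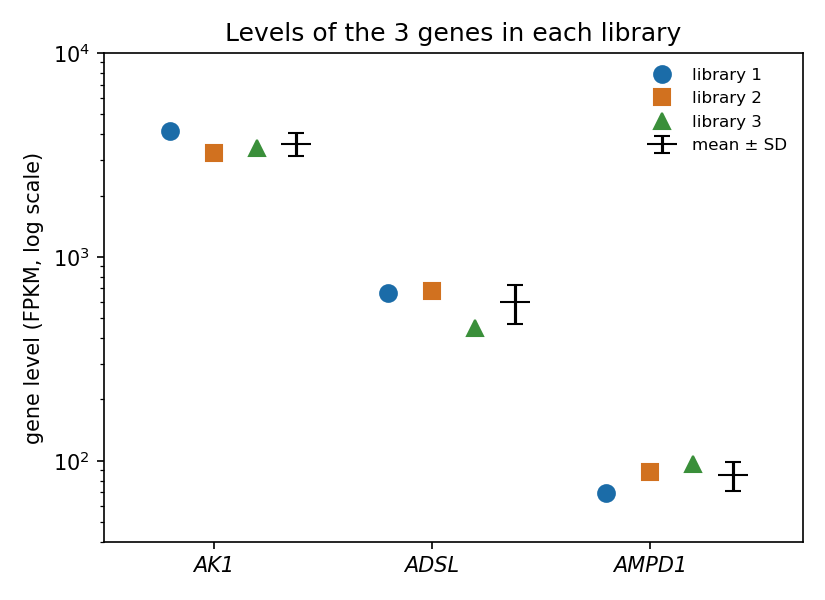
Level of AK1, ADSL and AMPD1 in each of the 3 libraries, in FPKM on a log axis, with the mean and SD (n = 3) to the right of each gene's points. The ranges of the 3 genes do not overlap: AK1 lies between 3224 and 4135 FPKM, ADSL between 449 and 684 FPKM and AMPD1 between 69.7 and 96.4 FPKM.

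The order AK1, ADSL, AMPD1 was the same in every library. Ratios within a library need no scaling between libraries. There AK1 exceeded ADSL by a log2 ratio of 2.63, 2.24 and 2.93 in libraries 1 to 3. The mean was 2.60 ± 0.35 (SD, n = 3). AK1 exceeded AMPD1 by 5.89, 5.19 and 5.15, a mean of 5.41 ± 0.42. The log2 ratio of AMPD1 to ADSL was -3.26, -2.96 and -2.22, a mean of -2.81 ± 0.53. Its size was smallest in library 3, where ADSL was low and AMPD1 high. Each mean ratio was larger than its SD, but the exact two-sided sign-flip permutation test gave p = 0.25 for each, the smallest that 3 libraries allow, so none could pass a threshold of 0.05.

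The 3 genes did not share a pattern across libraries. AK1 was highest in library 1, ADSL in library 2 and AMPD1 in library 3, and each was lowest in a different library, AK1 in library 2, ADSL in library 3 and AMPD1 in library 1. As deviations from each gene's own mean on the log2(FPKM + 1) scale, AK1 lay at 0.21, -0.15 and -0.06, ADSL at 0.18, 0.21 and -0.39, and AMPD1 at -0.27, 0.07 and 0.20 in libraries 1 to 3. Library 1 was the highest for 51.1% of all genes kept, so the place of AK1 there is the common one, while library 1 was the lowest for 25.8% of them, as it was for AMPD1. Library 3 was the lowest for 39.4% of genes, as it was for ADSL.

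Scaling by median of ratios divided library 1 by a factor of 1.09, a shift of 0.13 on the log2 scale. AK1 then deviated by 0.09, -0.12 and 0.03, so its sign in library 3 turned. ADSL stayed lowest in library 3 at -0.30, and AMPD1 stayed lowest in library 1 at -0.38 and highest in library 3 at 0.28. With each library set to sum to 1000000, AMPD1 lay at -0.25 in library 1 and 0.20 in library 3, and ADSL at -0.39 in library 3 but highest in library 1, by 0.20 against 0.19 in library 2.

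**Figure D2:**
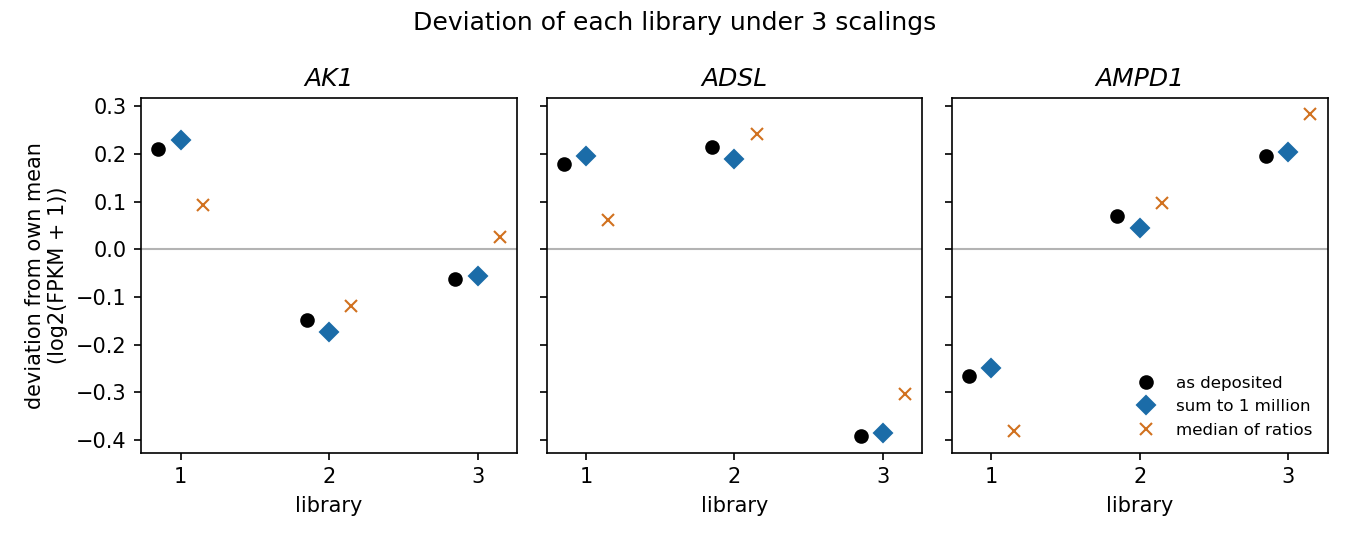
Deviation of each library from the gene's own mean, on the log2(FPKM + 1) scale, for AK1, ADSL and AMPD1 with the values as deposited, with each library summing to 1000000, and after median-of-ratios scaling. ADSL is below its mean in library 3 and AMPD1 below its mean in library 1 under each of the 3 scalings, while AK1 in library 3 lies on either side of 0.

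The spread of each gene between libraries was tested against that of genes of like level, across the whole table. The limma variance test with Benjamini-Hochberg adjustment called 0 of 6595 genes (0%), and AK1, ADSL and AMPD1 each had an adjusted p of 0.993. Without adjustment 372 genes (5.64%) lay under 0.05, none of them a member. The SD of log2 level was 0.19 for AK1 where the trend over all genes stood at 0.30, 0.34 for ADSL where it stood at 0.29, and 0.24 for AMPD1 where it stood at 0.28. With the values as deposited, AK1 and AMPD1 thus lay below the trend and ADSL above it. A p that misses the threshold does not show that they varied little, since the test missed larger shifts in simulated data. The SD of ADSL rested on library 3: without it, libraries 1 and 2 gave 0.02. Without library 1 the SD was 0.06 for AK1 and 0.09 for AMPD1. After median-of-ratios scaling the SD was 0.34 for AMPD1 and 0.28 for ADSL, the reverse of their order as deposited. The order of AMPD1 and ADSL by SD thus depended on the scaling. The trend after that scaling is not reported here, so the place of a gene beside it is known only for the values as deposited.

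**Figure D3:**
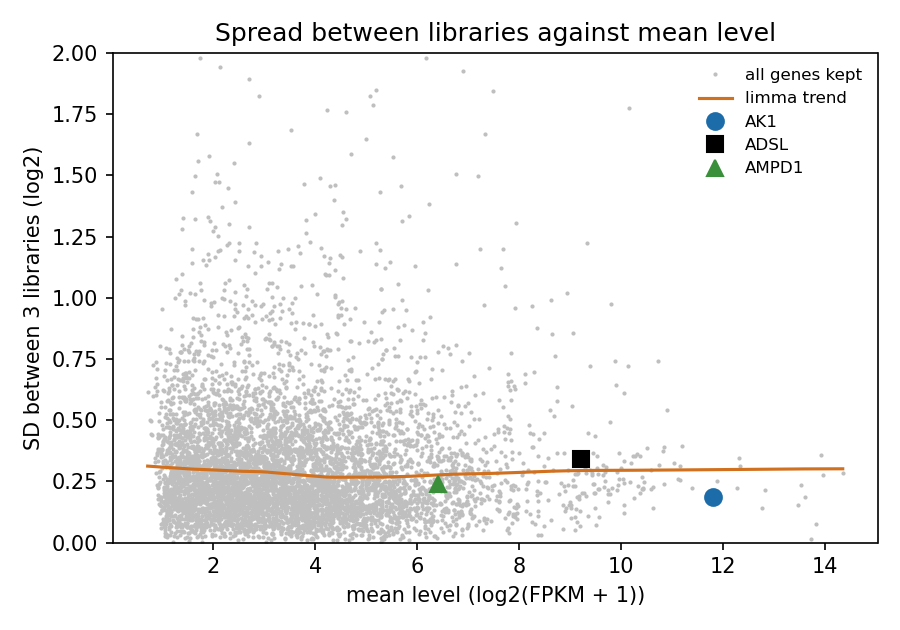
SD between the 3 libraries against mean level for the 6595 genes kept, both on the log2(FPKM + 1) scale, with the limma trend as a line. AK1 and AMPD1 lie under the line and ADSL a little over it; 9 genes with an SD above 2 are outside the axis.

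Markers of some other cell types were, like ADSL, low in library 3. Macrophage markers, of which 6 of 8 were matched, were lowest in library 3 for 6 of 6 genes, and their summed level was 379, 327 and 158 FPKM in libraries 1 to 3. Fat cell markers were lowest in library 3 for 5 of 6 genes, with sums of 196, 135 and 82.1 FPKM. The fat cell marker ADIPOQ went the other way, highest in library 3, at 38.4, 36.1 and 46.9 FPKM. Library 3 was the lowest for 39.4% of all genes kept. The part of the macrophage and fat cell lists in the level of ADSL was not tested. AMPD1, low in library 1, ran beside the muscle list above, which was lowest in library 1 for 4 of 6 genes. The muscle markers TNNC2 and PVALB went the other way, highest in library 1 and lowest in library 3. Of all genes kept, 25.8% were lowest in library 1. Red blood cell markers, 6 of 8 matched, also had their lowest sum in library 1, with sums of 70.1, 409 and 291 FPKM. Most of each sum was CA2, which was highest in library 2. The globin gene HBBA rose from 24.3 FPKM in library 1 to 54.1 FPKM in library 2 and 98.7 FPKM in library 3. AMPD1 rose in the same order. The globin gene HBA1 reached 3.10 FPKM in library 3 and was near 0 in libraries 1 and 2. The globin genes HBAD, HBBR and HBE were near 0 in every library. Fibroblast markers, 5 of 6 matched, were lowest in library 1 for 3 of 5 genes, with sums of 360.2, 776 and 583 FPKM. Of the others, PDGFRA was highest in library 1 and THY1 was lowest in library 3. The part of these lists in the level of AMPD1 was not tested. Endothelium markers, 5 of 6 matched, were lowest in library 2 for 4 of 5 genes, with sums of 86.2, 50.3 and 56.3 FPKM. AK1 was also lowest in library 2, whereas ADSL and AMPD1 were not. Of all genes kept, 34.8% were lowest in library 2. The part of the endothelium list in the level of AK1 was not tested. In bulk tissue, fewer cells of a type and less RNA per cell cannot be told apart.

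AMPD1 differed from the other 2 genes in having more than 1 matched transcript, and these did not move together. The transcript XM_004935003 had 52.9, 52.6 and 38.9 FPKM in libraries 1 to 3. The transcript XM_004935004 was listed at 16.8, 35.5 and 57.4 FPKM. The first was thus the higher in libraries 1 and 2 and the lower in library 3. The second rose with the AMPD1 sum from library 1 to library 3, while the first fell in library 3.

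As a share of the AMPD1 sum, XM_004935003 made up 75.9%, 59.7% and 40.4% in libraries 1 to 3, a range of 35.4 percentage points. Among 375 genes with 2 matched transcripts, a mean of at least 5 FPKM and values above 0 in every library, 41 (10.9%) also had a leading transcript that was not the same in all libraries, and 24 (6.40%) had a range of shares at least as large as that of AMPD1, counts that include AMPD1 itself. The median range over these genes was 9.29 percentage points. This comparison was chosen after the values of AMPD1 were seen. The split of reads between transcripts of a gene is an estimate by the authors' program, its error is not given, and how the 2 transcripts differ was not analysed here.

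**Figure D4:**
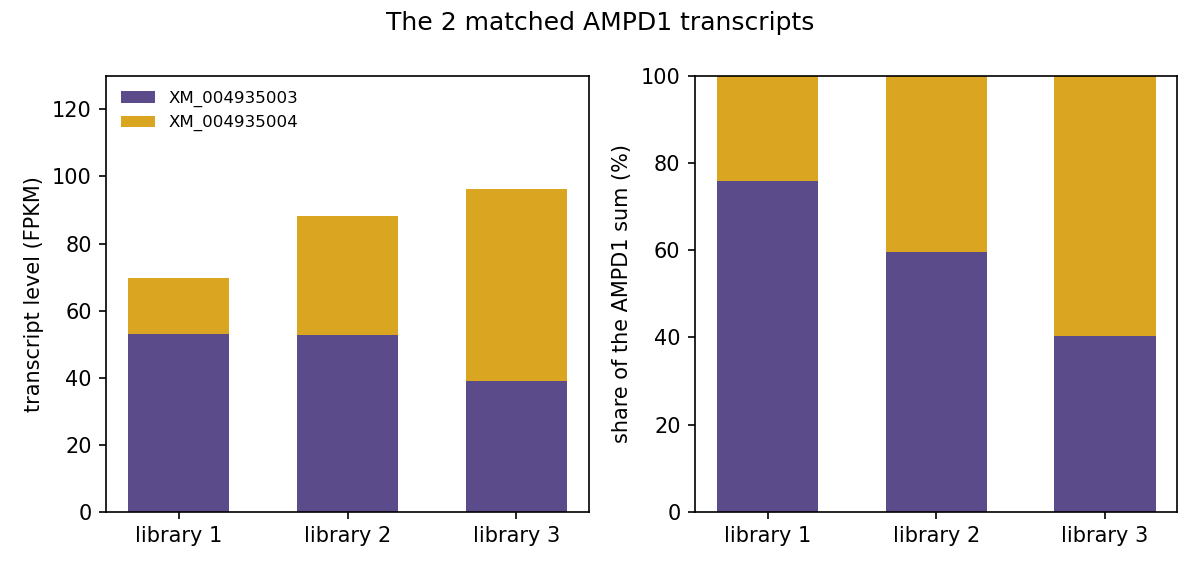
The 2 matched transcripts of AMPD1 in each library, stacked as levels in FPKM at left and as shares of the AMPD1 sum in percent at right. XM_004935003 falls below XM_004935004 in library 3 only, and its share is 75.9%, 59.7% and 40.4% in libraries 1 to 3.

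The remaining enzyme of the cycle is adenylosuccinate synthetase. ADSS1, its muscle form, had 225, 195 and 247 FPKM in libraries 1 to 3, between ADSL and AMPD1 in each. The form ADSS2, found in many tissues, was listed at 13.0, 14.7 and 13.0 FPKM, so ADSS1 made up 94.2 ± 1.04% of both synthetases (SD, n = 3). ADSL exceeded ADSS1 by a log2 ratio of 1.57, 1.81 and 0.86, and AMPD1 lay at -1.69, -1.15 and -1.36 relative to ADSS1. Of the summed level of the 3 cycle genes, ADSL held 69.3%, 70.7% and 56.7%, ADSS1 23.4%, 20.2% and 31.2%, and AMPD1 7.24%, 9.12% and 12.2% in libraries 1 to 3. AMPD1, of the step that frees ammonia, thus had the lowest transcript level of these 3 genes in each library, and its share was highest in library 3. Other forms of these enzymes were left out of the sum, and AMPD2, another AMP deaminase, was not matched.

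Among AMP deaminases, AMPD3, the form of red blood cells in humans, was the other matched form. It was listed at 20.05, 15.5 and 22.8 FPKM, and AMPD1 held 77.7%, 85.0% and 80.9% of their sum in libraries 1 to 3. NT5C1A, a nucleotidase of muscle that turns AMP into adenosine instead of IMP, was listed at 26.2, 48.6 and 56.3 FPKM. Both AMPD1 and NT5C1A were lowest in library 1 and highest in library 3, and AMPD1 exceeded NT5C1A by a log2 ratio of 1.41, 0.86 and 0.78, a mean of 1.02 ± 0.35 (SD, n = 3). With XM_004935003 alone standing for AMPD1, this order did not hold in library 3, where NT5C1A was the higher.

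AK1 far exceeded the related nucleoside monophosphate kinases reported here. CMPK1, which acts on CMP and UMP, was listed at 9.79, 11.1 and 13.9 FPKM, and AK1 exceeded it by a log2 ratio of 8.72, 8.19 and 7.94. AK6, a nuclear form, was listed at 10.5, 10.9 and 12.1 FPKM, and AK1 exceeded it by 8.62, 8.21 and 8.15. AK4, of the mitochondrial matrix, had a mean of 1.49 ± 0.140 FPKM. AK5 and AK8 stayed under 1 FPKM, and AK7 and AK9 were listed at 0 in every library, where 0 can be a failed estimate.

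ADSL also stood above the other enzymes that make purines from small precursors. Of 11 genes 8 were matched and all 8 passed the filter. The highest was IMPDH2, which commits IMP to guanine nucleotides, at 160.1, 149.6 and 157 FPKM, and ADSL exceeded it by a log2 ratio of 2.06, 2.19 and 1.52. ATIC, which catalyses the last steps to IMP, was listed at 23.3, 39.0 and 20.6 FPKM, and GART, of the early steps, at 15.5, 5.25 and 8.84 FPKM. PAICS, whose product ADSL cleaves, was listed at 14.8, 26.2 and 26.7 FPKM, and PPAT, which opens the route, at 4.34, 4.81 and 5.48 FPKM. ADSL exceeded PAICS by a mean log2 ratio of 4.76 ± 0.71 and PPAT by 6.92 ± 0.49 (SD, n = 3). ADSL and ATIC were both lowest in library 3, but PAICS and PPAT were highest there, so low values in library 3 were not shared along the route.

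Salvage and breakdown genes lay lower than ADSL, though HPRT1 and NT5C1A had higher means than ATIC. HPRT1, which rebuilds IMP from hypoxanthine, was listed at 50.9, 50.7 and 52.2 FPKM, the steadiest of the purine genes kept. ADK, which returns adenosine to AMP, was listed at 9.87, 16.9 and 15.8 FPKM. XDH, which makes uric acid, stayed under 1 FPKM in every library, at most 0.275 FPKM. Of 13 genes in this list 11 were matched and 9 passed the filter. The 11 matched genes together had 134, 164 and 173 FPKM in libraries 1 to 3, lower in each library than ADSL alone.

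**Figure D5:**
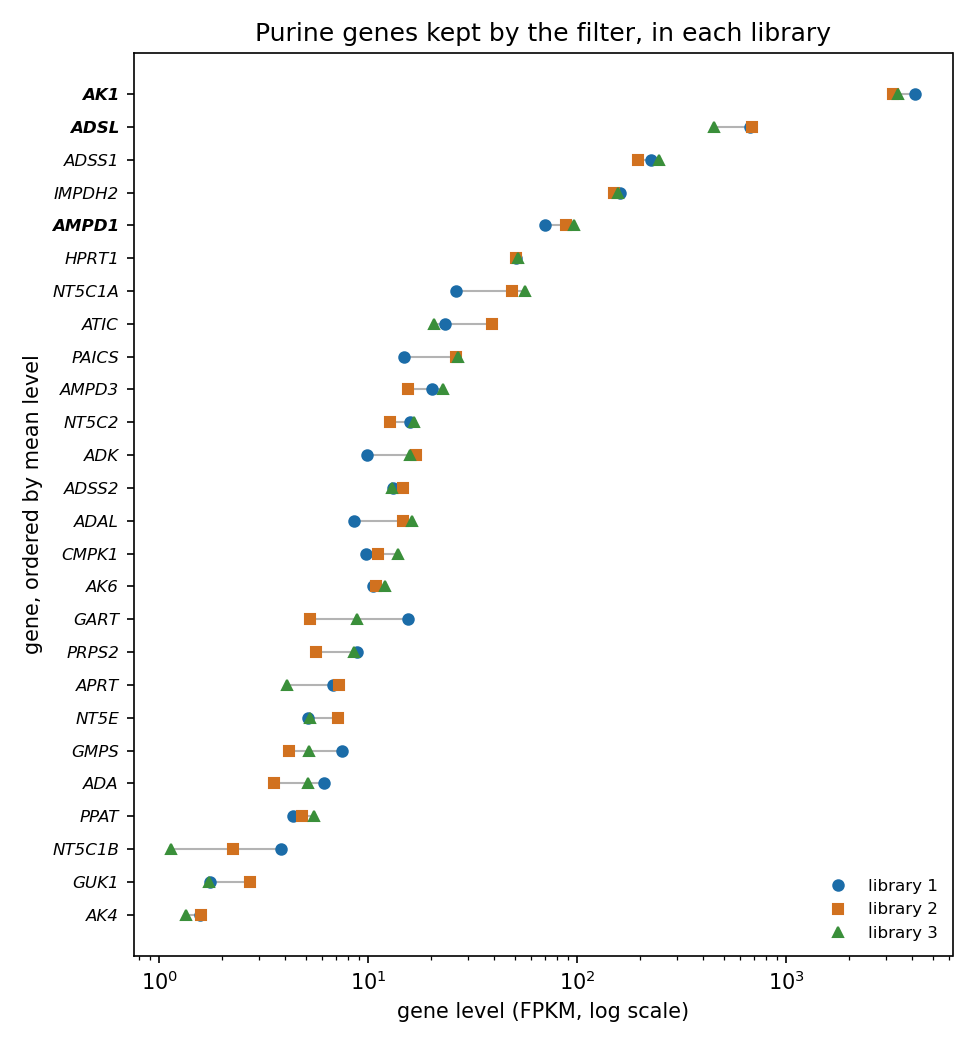
Levels in FPKM, on a log axis, of 26 purine genes kept by the filter, in order of mean level, with a point for each of the 3 libraries and a grey line over their range. AK1, ADSL, ADSS1, IMPDH2 and AMPD1 follow each other without overlap, whereas most neighbours below HPRT1 overlap.

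In the order of mean level over these 26 genes, AK1, ADSL, ADSS1, IMPDH2 and AMPD1 held the first 5 places in every library, and the range of each lay wholly above that of the next. The range of the AMPD1 sum also lay above that of HPRT1, which came next. With the highest AMPD1 transcript alone, at 52.9, 52.6 and 38.9 FPKM, HPRT1 was the higher in library 3. HPRT1 and NT5C1A could not be ordered, since NT5C1A was the higher in library 3. In all, 34 ratios of a member to another member, a family gene or the muscle creatine kinase CKM were planned. CKM and other unmatched or zero genes left 23, and in each of these all 3 libraries lay on 1 side. The exact sign-flip permutation p was 0.25 for each, also after Benjamini-Hochberg adjustment over the 23. The share of all gene pairs that keep to 1 side was not computed. Many of the pairs differed widely in level, so the count cannot be read as a trait of the members.

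The list for AMPK, the kinase complex that senses the AMP formed by adenylate kinase, had all 10 genes matched and kept. STK11, CAB39 and STRADA in this list are not AMPK subunits. The highest subunit was PRKAB2, at 240.2, 334 and 280 FPKM, followed by PRKAG3, the gamma subunit of fast muscle, at 115, 172 and 116 FPKM. Of the catalytic subunits, PRKAA2 was listed at 32.6, 24.1 and 28.1 FPKM and PRKAA1 at 4.51, 3.17 and 4.06 FPKM. PRKAB1, the other beta subunit, was listed at 30.0, 21.0 and 9.67 FPKM, and like ADSL was lowest in library 3. Over 9 lists around the 3 genes, 57 of 76 different genes were matched and 48 kept. The limma test called 0 of the 48, where it called 0% of all genes. Without adjustment 2 of the 48, PRKAB1 and GLUL, lay under 0.05 in limma, no larger a share than the 5.64% of all genes. Their adjusted p in limma was 0.806 for PRKAB1 and 0.681 for GLUL. The SD of log2 level of the 48 had a median of 0.27, beside 0.26 over all genes kept.

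GLUL, glutamine synthetase, which fixes free ammonia, had 108, 31.1 and 23.4 FPKM in libraries 1 to 3. GLUL was highest where AMPD1 was lowest and lowest where AMPD1 was highest, an order that 3 libraries cannot test. Its places are common ones: library 1 was the highest for 51.1% and library 3 the lowest for 39.4% of all genes kept. ASNS, which makes asparagine from aspartate, was the other ammonia handling gene kept, at 5.33, 13.8 and 13.0 FPKM, and like AMPD1 was lowest in library 1. The transport proteins RHBG and RHCG, which carry ammonia, had means of 0.935 and 0.010 FPKM.

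The genes most like each member were sought among 4365 other genes with a mean of at least 5 FPKM, by the Euclidean distance between deviations from the own mean on the log2(FPKM + 1) scale over 3 libraries. Nearest to AK1 was EFR3A (6.26, 4.64 and 4.99 FPKM), then LMBRD1 and NT5DC3, at distances of 0.003, 0.013 and 0.013. Nearest to ADSL was ANXA1, with 24.5, 25.1 and 16.3 FPKM, then SERPINE2 and NKIRAS1, at 0.007, 0.020 and 0.042. Nearest to AMPD1 was HNRNPK, with 42.9, 54.2 and 60.1 FPKM, then RPS27L and LHPP, at 0.014, 0.016 and 0.017. Such likeness is common over 3 libraries: within a distance of 0.1 lay 253 genes (5.80%) for AK1, 43 (0.985%) for ADSL and 103 (2.36%) for AMPD1.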

How the data were processed

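The authors deposited 1 table per library with 1 value for each of 36977 RefSeq transcripts. The deposited values were read as FPKM, which no header names: they are not whole, and 4247 to 4370 per library lie between 0 and 0.001. If they were TPM of part of the transcripts, ratios inside a library would not change. If they were not corrected for transcript length, ratios between genes would also depend on that length. CASAVA 1.7, Bowtie2 and HTSeq are listed, without their roles, per the submitters' processing notes; for genome build, annotation and quantifying program the entry is: not given in the sources used here. The values did not give back whole reads, since no more than 6 of 1889 low transcripts had the same ratio of library 1 to library 2 at 3 decimals of the natural log. No counting interval can be given.

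Accessions were matched without version to the NCBI RefSeq genes of assembly GRCg7b, from which only names were taken: 13188 transcripts (35.7%) matched, giving 10663 genes, and unmatched transcripts carry no name here. Genes were matched by symbol alone. Lists, members and tests were chosen with earlier results of these data known. Named genes are the members, the 2 highest and the most variable gene of each list, other list genes where a result turns on them, and the 3 genes most like each member; some list genes are not reported here.

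Spread was tested in limma 3.58.1 (R 4.3.3) on log2(FPKM + 1): the variance over 3 libraries against its robust trend with mean level, upper F tail, Benjamini-Hochberg adjusted p under 0.05. The log2 scale with pseudocount 1 understates differences of low genes. The test was checked on simulated data, where it called none of the smaller shifts and all of the larger ones. The smaller shifts were themselves of at least several fold, so a gene that was not called may still differ by that much between libraries. They were larger than the differences of AK1, ADSL and AMPD1 between libraries. The test was thus not able to call differences of the size seen for these genes, and their adjusted p says little about them. Ratios were taken without pseudocount and tested by exact sign-flip permutation. Alternatives were other scalings, pseudocount 0.1, no filter, the highest transcript alone, curated transcripts alone, and each library left out.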

Additional observations from a re-analysis of the deposited data

How the results depend on the processing

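The log2 ratios between AK1, ADSL and AMPD1 kept their direction under all 13 alternative values, but none of these could have turned it. All 3 libraries lay on 1 side for each pair, so leaving a library out kept the sign. AK1 and ADSL have 1 matched transcript each, and taking 1 of the AMPD1 transcripts can only lower AMPD1, already the lowest. Leaving out a library gave 2.43 to 2.78 for AK1 over ADSL, 5.17 to 5.54 for AK1 over AMPD1 and -3.11 to -2.59 for AMPD1 over ADSL. With the highest transcript alone AK1 over AMPD1 was 6.23 and AMPD1 over ADSL -3.63. Curated transcripts alone hold no AMPD1, so its ratios have no value there, and 10 in place of 20 ratios to family genes could be formed, all 10 with every library on 1 side. With the highest transcript alone 19 of 20 were, the exception being AMPD1 over NT5C1A. Of the mean levels 19 of 23 alternative values moved by less than 1 SD. The exceptions were the 3 rescaled to a sum of 1000000 and the highest AMPD1 transcript alone. Most of the 19 could not have moved by 1 SD. Leaving out 1 of 3 libraries always shifts a mean by less, and AK1 and ADSL have 1 matched transcript each. The SD of log2 level moved by over 1.5 times in 4 of 23, the 3 given above for a library left out and AK1 after median-of-ratios scaling, at 0.11.

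The limma spread test called 0 genes under pseudocount 0.1, no filter, median-of-ratios scaling, a trend without the robust option, curated transcripts alone, and, chosen after seeing the data, prior degrees of freedom lowered for outlying genes. With a library left out it called 0 to 30 genes, with 26 without library 2, 30 without library 3 and 0 without library 1, and neither AK1, ADSL nor AMPD1 among them; the cause was not tested. Unknown depth limits every value near 0. No paired analysis was possible because there is only 1 group.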

Other observations

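Genes that handle the fumarate and aspartate of the cycle were mostly highest in library 3, as AMPD1 was. Of 6 matched genes 5 were highest there, against 22.6% of all genes kept. MDH2 and MDH1, the mitochondrial and cytosolic malate dehydrogenases, were listed at 279, 435 and 571 FPKM and at 130, 236 and 336 FPKM in libraries 1 to 3. The aspartate aminotransferase GOT2 was listed at 227, 250 and 330 FPKM. FH, which turns fumarate into malate, was listed at 95.8, 86.7 and 105 FPKM.

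Genes that move high-energy phosphate out of mitochondria did not share an order. CKMT2, the creatine kinase of muscle mitochondria, was listed at 583, 868 and 1616 FPKM, and SLC25A4, the ATP and ADP carrier of muscle, at 1109.5, 1185 and 1749 FPKM, both highest in library 3. The other carriers of ATP and ADP were lowest there: SLC25A6 was listed at 70.5, 79.6 and 66.4 FPKM and SLC25A5 at 12.0, 10.8 and 8.05 FPKM. CKB, the brain form of creatine kinase, was listed at 8.32, 14.1 and 7.96 FPKM. AK1 exceeded both CKMT2 and SLC25A4 in each library.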
